A study of Mus musculus with 10 samples.

Results

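The resting transcript profile of wildtype mouse liver was described from 5 of the 10 livers of the series, those of female C57Bl/6J mice without the Gyk alteration that the other 5 livers carry in 1 copy. The 5 mice were chosen by their source label, and no comparison between genotypes was made. All of them were 23 weeks old and had eaten chow with 4% fat until 11 weeks of age and chow with 6% fat afterwards. Whole liver was used, so every value is an average over the cell types of the organ, and fewer cells of a type cannot be told apart from less RNA per cell. Total RNA was amplified, labelled with biotin and hybridised to Illumina bead arrays, 1 array per mouse. Each array gave 1 intensity, the brightness of the beads that carry a probe, for each of 24048 probes. A probe could be given a gene name where its identifier holds a gene number, which was so for 8884 probes of 7409 genes, and a gene with several probes was read at its brightest one. The mice are called replicates 1 to 5 here, in an order that carries no meaning, and their number limits the precision of every value.

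The liver makes most of the proteins of blood plasma. Hepatocytes, its main cells, secrete apolipoproteins, protease inhibitors, clotting factors and iron carriers, turn ammonia into urea, store and release glucose, make cholesterol and bile acids, and clear foreign compounds through cytochromes P450 and conjugating enzymes. Kupffer cells, sinusoidal endothelial cells, stellate cells and bile duct cells make up the rest of the organ. Many hepatocyte genes are known to follow the time of day, feeding, inflammation and the pattern of growth hormone release, and none of these was recorded in the sources used here.

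The liver label was borne out by hepatocyte markers. Apoa1, the main protein of high-density lipoprotein, read 50447, 48949.7, 49365, 51810.3 and 55556 in replicates 1 to 5 (probe scl011806.4_161-S), a mean of 51226 ± 2662 (SD, n = 5). Serpina1a, which codes for a form of alpha-1-antitrypsin, read 16776, 12768, 13998, 16635 and 15031, with a mean of 15042 ± 1718 (SD, n = 5). Trf, transferrin, the iron carrier of plasma, read 39262, 4947, 4159.5, 13924 and 4642. All 3 were far above array noise in every liver, but Trf was much brighter in replicate 1, and to a lesser degree in replicate 4, than in the other 3 livers. Of the 7 hepatocyte markers with a named probe, which also include Ass1, Tdo2 and Pck1, 7 were detected in 5 of 5 livers. The share over all named genes was 41.2%.

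A probe was called detected on an array when its intensity was above 1.64 times the noise of that array, the root mean square of its values below 0, which lets through about 5% of probes with no signal. The limit so set was 41.2, 31.2, 25.6, 29.2 and 32.4 in replicates 1 to 5, the median intensity was 24.0, 18.0, 15.3, 17.5 and 18.3, and between 9991 and 10210 probes were detected per array. Of 7409 named genes, 3051 (41.2%) were detected in 5 of 5 livers, 1319 (17.8%) in 1 to 4, and 3039 (41.0%) in 0. Among all 24048 probes, 8066 (33.5%) were detected in 5 of 5. The mean intensity of the 3051 detected genes had a median of 447.5, with 73.2 at the 10th percentile and 3758 at the 90th. A total of 966 genes had a mean above 1000, 106 above 10000 and 35 above 20000, and the 30 brightest held 18.4% of the summed intensity of all named genes. Near the limit, which averaged 31.9, calls were uneven: Bcor at 32.1 ± 15.7 (SD, n = 5) was detected in 3 livers, and Snrpe at 31.9 ± 23.2 (SD, n = 5) in 2. The other genes next to the limit, Olfr924, Wdr37, Mucl1 and Havcr1, had means between 31.8 and 32.1 and were detected in 3 livers each.

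Brightness also depends on how well a probe binds, so the classes that follow sort probes and do not rank RNA amounts between genes. In 215 genes with 2 probes detected in 5 of 5 livers, the brighter probe read a median of 2.36 times the dimmer one, and more than 10 times in 39 genes. In 299 genes 1 probe was detected in 5 of 5 livers and another in 0. An undetected probe therefore does not show that a gene was silent: of 19 housekeeping genes with a named probe, 5 were detected in 0 livers, among them Actg1, a cytoplasmic actin, and Eef1a1, an elongation factor of protein synthesis.

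The 5 arrays were not equally alike. For comparisons between livers the intensities were raised by 95.2, taken to log2 and quantile normalized, and the spread of a gene is given as the SD or the range, highest minus lowest, of these 5 values. Across the 3051 detected genes the normalized values of 2 arrays correlated with r between 0.948 (replicates 1 and 5) and 0.990 (replicates 3 and 5), where genes are not independent replicates. Replicate 1 was the liver farthest from the median in 1332 genes (43.7%), replicate 2 in 652, replicate 4 in 531, replicate 3 in 284 and replicate 5 in 252. Replicate 1 was also the lowest liver in 1255 genes (41.1%). Results on spread are therefore given with and without replicate 1, and, where replicate 4 moved with it, without both. No mouse was measured on a second array, so a difference between livers cannot be told apart from a difference between arrays.

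The brightest probes included many of secreted plasma proteins and lipoproteins, beside enzymes and genes that every cell uses. Among the 30 brightest genes, with means from 21675 to 62258, stood Kng1, the kininogen from which bradykinin is cut, and Apoa2, an apolipoprotein of high-density lipoprotein. Kng1 read 62461, 66878, 54259.6, 64855 and 62838 in replicates 1 to 5, and Apoa2 read 62652, 58661, 56835, 62689.9 and 65999. Neither varied much: the highest liver was 1.23 times the lowest for Kng1 and 1.16 times for Apoa2 in deposited intensity. The group also held Apoa1, Apoc3, an inhibitor of lipoprotein lipase, Apoe, a ligand for the uptake of lipoprotein remnants, and Apoc4. Of the 11 named genes of apolipoproteins and lipoprotein secretion, 10 were detected in 5 of 5 livers, against 41.2% of all named genes, and 8 lay in the brightest 10.0%. Their median range between livers was 0.25 on the log2 scale, where that of all 3051 detected genes was 0.49. Quantile normalization gives each probe the value of its rank on its array, so at the bright end different intensities can become equal. Apoa2 had the same normalized value, 15.8, in replicates 1, 2 and 3. Small ranges among the brightest genes may therefore partly reflect the normalization.

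**Figure D1:**
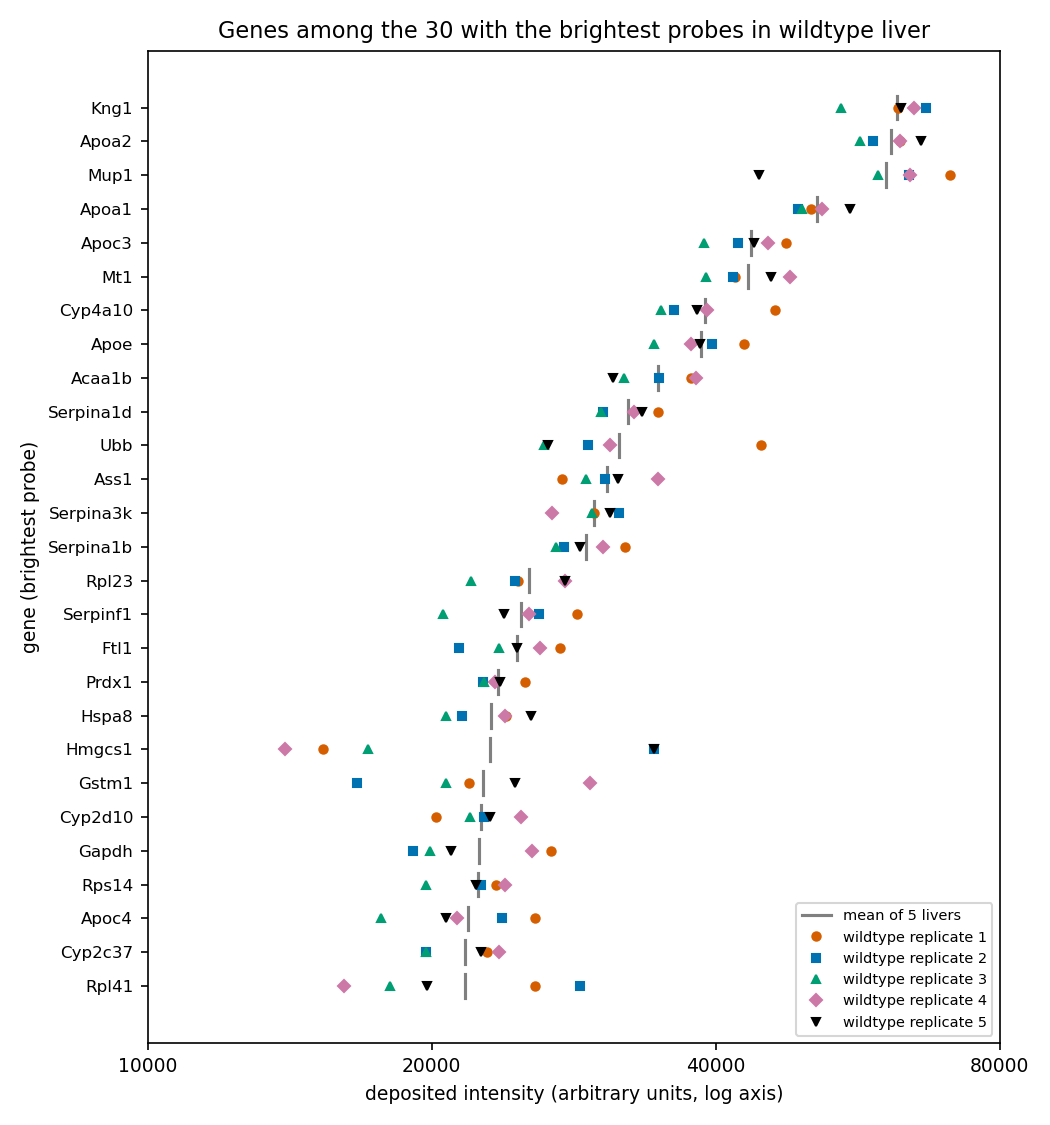
Deposited intensity (x axis, arbitrary units, log axis) of genes among the 30 with the highest mean, those named in the text (y axis). Each symbol is 1 of the 5 wildtype livers and the grey bar is the mean. Most genes have their 5 livers close together, whereas Hmgcs1 separates replicates 2 and 5 from the other 3.

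Protease inhibitors of plasma formed the next group. Serpina1d read 34714, 30400.2, 30236, 32744 and 33374, Serpina1b read 32073, 27623, 27086, 30358 and 28699.6, and both code for forms of alpha-1-antitrypsin whose sequences are so alike that their probes may not tell the family apart. Serpina3k, a relative of antichymotrypsin, had a mean of 29703 ± 1816 (SD, n = 5), and Serpinf1, a secreted serpin also called pigment epithelium-derived factor, one of 24845 ± 2941 (SD, n = 5). All 16 of 16 named genes of plasma carriers and protease inhibitors were detected in 5 of 5 livers, against 41.2% of all named genes. Of the 16, 13 were in the brightest 10.0%. The clotting genes Klkb1, prekallikrein, and F5, coagulation factor V, had means of 4428 ± 1166 (SD, n = 5) and 2314 ± 589 (SD, n = 5). Complement was more uneven, with 6 of 8 named genes detected in 5 of 5 livers. Of these Mbl1, a mannose-binding lectin, had a mean of 4464 ± 672 (SD, n = 5).

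Mup1, a major urinary protein that carries pheromones, read 70814, 64124, 59467, 64295 and 44469. Replicate 5 was the lowest, and the other 4 lay between 59467 and 70814. Major urinary proteins come from a cluster of near-identical genes, so this signal and that of Mup3, with a mean of 17999 ± 1650.1 (SD, n = 5), may be shared among them. Mt1, a metallothionein that binds zinc and copper, read 41882, 41766, 39032, 47953 and 45725, and Ftl1, the ferritin light chain, which stores iron, had a mean of 24603 ± 2303 (SD, n = 5). Crp, C-reactive protein, and Orm1, an acute phase plasma protein, were also bright and even, with means of 19172 ± 1037 (SD, n = 5) and 14739.9 ± 1763 (SD, n = 5). Their ranges were 0.30 and 0.30 on the log2 scale.

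Enzymes made up most of the remaining bright genes. Cyp4a10, which hydroxylates fatty acids, read 46237, 36113, 35019.7, 39160.4 and 38212, and Acaa1b, a thiolase of peroxisomal fatty acid oxidation, had a mean of 34742 ± 3171 (SD, n = 5). Ass1, argininosuccinate synthase of the urea cycle, read 27481, 30553, 29167, 34718 and 31517. Cyp2d10 and Cyp2c37, cytochromes P450, had means of 22564 ± 1685 (SD, n = 5) and 21687 ± 1835 (SD, n = 5). Gstm1, a glutathione transferase, read 21918, 16679, 20685, 29422 and 24527, with replicate 4 highest and replicate 2 lowest. Gapdh of glycolysis and Prdx1, a peroxiredoxin, had means of 22464 ± 3461 (SD, n = 5) and 23484 ± 997 (SD, n = 5). Genes that every cell uses were also in the group, among them Ubb, which codes for ubiquitin, Hspa8, a chaperone, and the ribosomal protein genes Rpl23, Rps14 and Rpl41. Of the 30 brightest genes 1, Hmgcs1, had a range of at least 1, and the median range was 0.24. The limit given above for ranks at the bright end applies here too.

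Middling probes, those in the middle 20% of the 3051 detected genes, had means between 301 and 671. They held regulators and enzymes from most parts of liver metabolism. Clock, a core transcription factor of the circadian clock, had a mean of 524 ± 88.2 (SD, n = 5) and Csnk1d, a kinase that acts on clock proteins, one of 454 ± 49.4 (SD, n = 5). Prox1, a transcription factor of hepatocyte identity, had a mean of 638 ± 86.7 (SD, n = 5). Slc10a1, the sodium-dependent bile acid importer, read 318, 384, 406, 557 and 573, with the 5 livers spanning a range of 0.78. Apoc2, the activator of lipoprotein lipase, had a mean of 433 ± 114 (SD, n = 5), and Elovl6, a fatty acid elongase, one of 622 ± 109 (SD, n = 5). Sgk1, a kinase induced by glucocorticoids, had a mean of 589.7 ± 71.2 (SD, n = 5) and Cish, a feedback inhibitor of cytokine receptors, one of 544 ± 155 (SD, n = 5). Gk, the glycerol kinase gene that gives the mouse line its name, read 914, 437, 579.7, 416 and 446 at its brighter probe (scl0014933.2_154-S). Replicate 1 was the highest, and the range fell from 0.88 to 0.40 without it. The other Gk probe was detected in 0 livers.

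Probes for genes of other tissues were mostly not above noise. Of 24 named genes of brain and nerve, 17 were detected in 0 of 5 livers, as were 8 of 9 of muscle and heart, 6 of 7 of testis and 6 of 9 of pancreas and gut, against 41.0% of all named genes. Gfap of astrocytes, Snap25 of synapses, Myh6 and Myh7 of heart muscle, Prm2 of sperm and the trypsinogen gene Prss1 were all among them, with means between -20.02 and 1.28. The exceptions included genes also known from liver. Slc1a2, a glutamate transporter of astrocytes and of hepatocytes around the central vein, read 576, 497, 304, 614 and 499. Syt1, Mapt and Tubb3 of the brain and nerve list were also detected in 5 of 5 livers. That made 4 of the 24, against 41.2% of all named genes. Apoa4, made by gut and liver, had a mean of 2691 ± 1191 (SD, n = 5), and Eno3, the enolase of muscle, one of 141 ± 30.9 (SD, n = 5). Cela2a, a pancreatic elastase, was detected in 5 of 5 livers with a mean of 103 ± 28.9 (SD, n = 5), while the other pancreatic protease genes Prss1, Try4 and Cela3b were detected in 0.

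**Figure D2:**
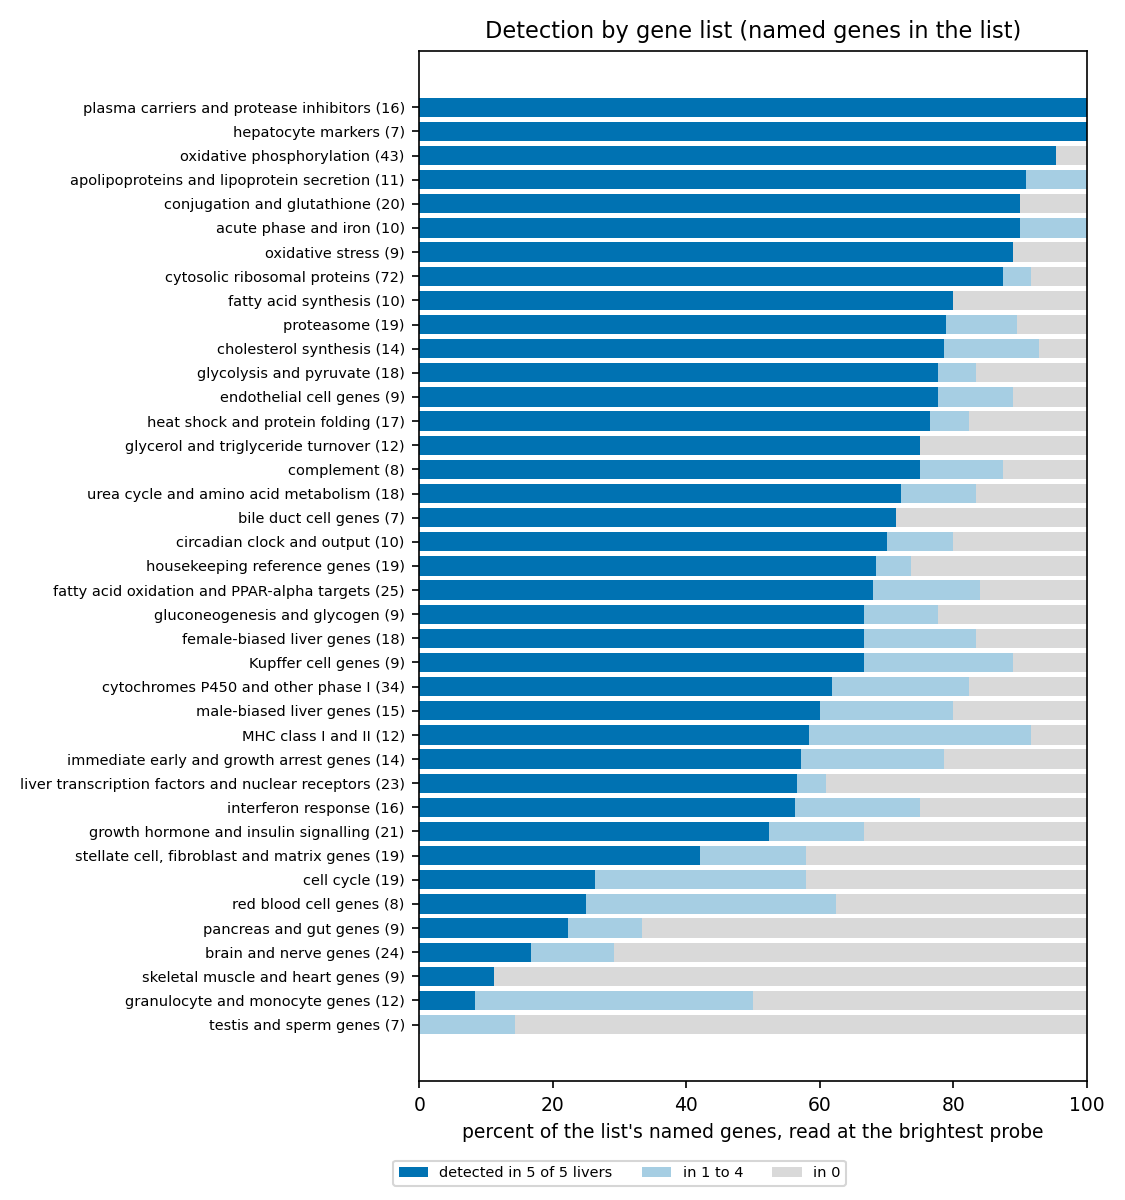
Share of the named genes of each list (x axis, percent) that were detected in 5 of 5, in 1 to 4, or in 0 wildtype livers, for the lists with at least 7 named genes (y axis, number of named genes in brackets). Plasma carriers and hepatocyte markers are filled to the end, and genes of testis, muscle, brain and pancreas are mostly in the grey part. Of 12 granulocyte and monocyte genes 6 are in the grey part.

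Several genes with a known role in liver also fell below the limit. Srebf1, a transcription factor of fatty acid synthesis, Cd36, a fatty acid transporter, Slco1a1, an organic anion transporter, and Ahcy, which breaks down S-adenosylhomocysteine, were each detected in 0 of 5 livers. So were Rplp2 and Rps18 among the ribosomal protein genes and Sdha of the respiratory chain, with means of 4.18, -31.7 and -4.42. Other members of the same lists were bright: 63 of 72 named ribosomal protein genes and 41 of 43 of oxidative phosphorylation were detected in 5 of 5. Of the cell cycle genes 5 of 19 were detected in 5 of 5, against 41.2% of all named genes, and 8 in 0, against 41.0%, among them Ccnb1, a mitotic cyclin, and Cdc20. Ccnd1, cyclin D1, had the brightest probe of the list, at 4746, 6907, 2396, 4305 and 4024. Replicate 2 was the highest and replicate 3 the lowest, in the brighter 2 of its 3 probes alike.

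Genes known from the other cells of the liver were also detected, and the counts that follow stand against 41.2% of all named genes detected in 5 of 5 livers. Clec4g, a lectin of sinusoidal endothelial cells, read 3692, 4146, 5015, 4342 and 4706, and 7 of 9 named endothelial genes were detected in 5 of 5 livers, Robo4, Gpihbp1 and Eng among them. Their ranges lay between 0.34 and 0.68, so none reached 1. Of 9 named Kupffer cell genes 6 were detected in 5 of 5, including Csf1r, the receptor that macrophages depend on, with a mean of 129 ± 33.3 (SD, n = 5). Dcn, decorin, and Reln, reelin, both known in stellate cells, had means of 11075 ± 1865 (SD, n = 5) and 4091 ± 804 (SD, n = 5), whereas Acta2, Col1a2 and Col3a1, which mark activated stellate cells and scar, were detected in 0. Spp1, osteopontin of bile duct cells, had a mean of 491 ± 161 (SD, n = 5), and Krt19, a keratin of the same cells, was detected in 0. Of 5 T cell, natural killer cell and dendritic cell genes 0 and of 12 granulocyte and monocyte genes 1, Fpr2, were detected in 5 of 5.

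Between the 5 livers most genes moved little. The SD of the normalized log2 values had a median of 0.20 over the 3051 detected genes, with 0.10 at the 10th percentile and 0.42 at the 90th. The range was under 0.5 in 1589 genes (52.1%) and at least 1, a 2-fold difference between the highest and the lowest liver, in 342 (11.2%). In 50 genes it was at least 2. Genes with a range of at least 1 are called variable below. Without replicate 1, 180 of the 3051 genes (5.90%) were variable over the remaining 4 livers, and without replicates 1 and 4, 53 (1.74%) over the remaining 3, where fewer livers also leave less room for a range. Variable genes were found at most brightness levels. With the genes sorted into 5 brightness classes of equal size, they made up 2.13% of the dimmest class, 15.6% of the second and the third, 13.9% of the fourth and 8.85% of the brightest, and the constant added before log2 shrinks the range of dim genes.

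**Figure D3:**
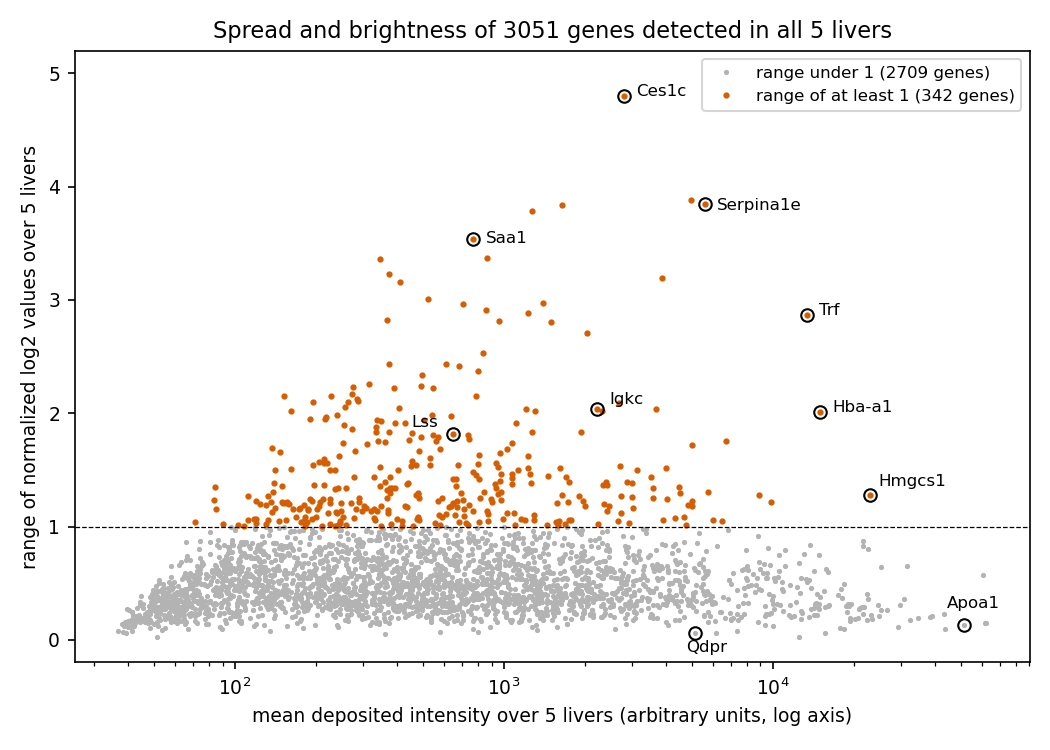
Range of the normalized log2 values over the 5 wildtype livers (y axis) against the mean deposited intensity (x axis, arbitrary units, log axis). Each point is 1 of the 3051 genes detected in all 5 livers. The 342 genes at or above the dashed line, a range of 1, are orange, and the circled genes are those named in the plot.

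Replicates 1 and 4 set much of this spread. They were the 2 highest or the 2 lowest livers in 183 of the 342 variable genes (53.5%) and in 842 of all 3051 detected genes (27.6%). Among the 30 genes with the largest SD, with ranges from 2.02 to 4.80, they were the 2 highest livers in 17 and the 2 lowest in 8. Ces1c, a carboxylesterase that the mouse liver secretes into plasma, had the largest range of all detected named genes, each read at its brightest probe. Ces1c read 11016, 457, 412, 1829 and 272 (scl013884.9_14-S), so that the highest liver was 40.5 times the lowest in deposited intensity. Its range was 4.80 over 5 livers, 2.35 without replicate 1 and 0.57 without replicates 1 and 4.

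The same order, replicate 1 far above replicate 4 and both above the rest, ran through genes of unrelated roles. Fth1, the ferritin heavy chain, read 17084, 1174, 940.0, 4642 and 1004. Trf, given above, had a range of 2.87, which fell to 1.59 without replicate 1 and to 0.10 without replicates 1 and 4. Rpl7a, a ribosomal protein gene, read 5679, 368, 262, 1653 and 282, while most genes of its list kept their 5 livers close. Shmt1, an enzyme of one-carbon metabolism, read 1245, 31.5, 42.7, 379 and 36.1, close to the detection limit in replicates 2, 3 and 5. Cyp3a11, a P450 that clears many drugs, read 11441, 1773, 1279.6, 3742 and 1094. The histone genes H2bc15, H2bc9, H2bc7 and H2bc13, whose sequences are so alike that 1 transcript may reach several probes, had ranges from 2.54 to 2.97, and H2bc15 read 3578, 398, 392, 1412 and 363. In all of these, replicates 2, 3 and 5 lay together and replicate 4 stood between them and replicate 1.

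Ugt1a1, which conjugates bilirubin, and Tmed2, a cargo protein of the secretory pathway, were high mainly in replicate 1. Ugt1a1 read 1519, 68.6, 75.6, 132 and 74.2, and its range fell from 3.23 to 0.49 without that liver. Tmed2 read 1186, 129, 158, 222 and 168, and its range fell from 2.43 to 0.51. Cebpa, a transcription factor of hepatocyte genes, followed the same order with 429, 63.8, 54.8, 80.7 and 57.5 and ranges of 1.69 and 0.22. Scp2, a sterol carrier of peroxisomes, was high in replicate 1 at both of its detected probes. The brighter Scp2 probe read 2993, 179, 349, 597 and 223, and the ranges of the 2 probes were 3.37 and 3.42.

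**Figure D4:**
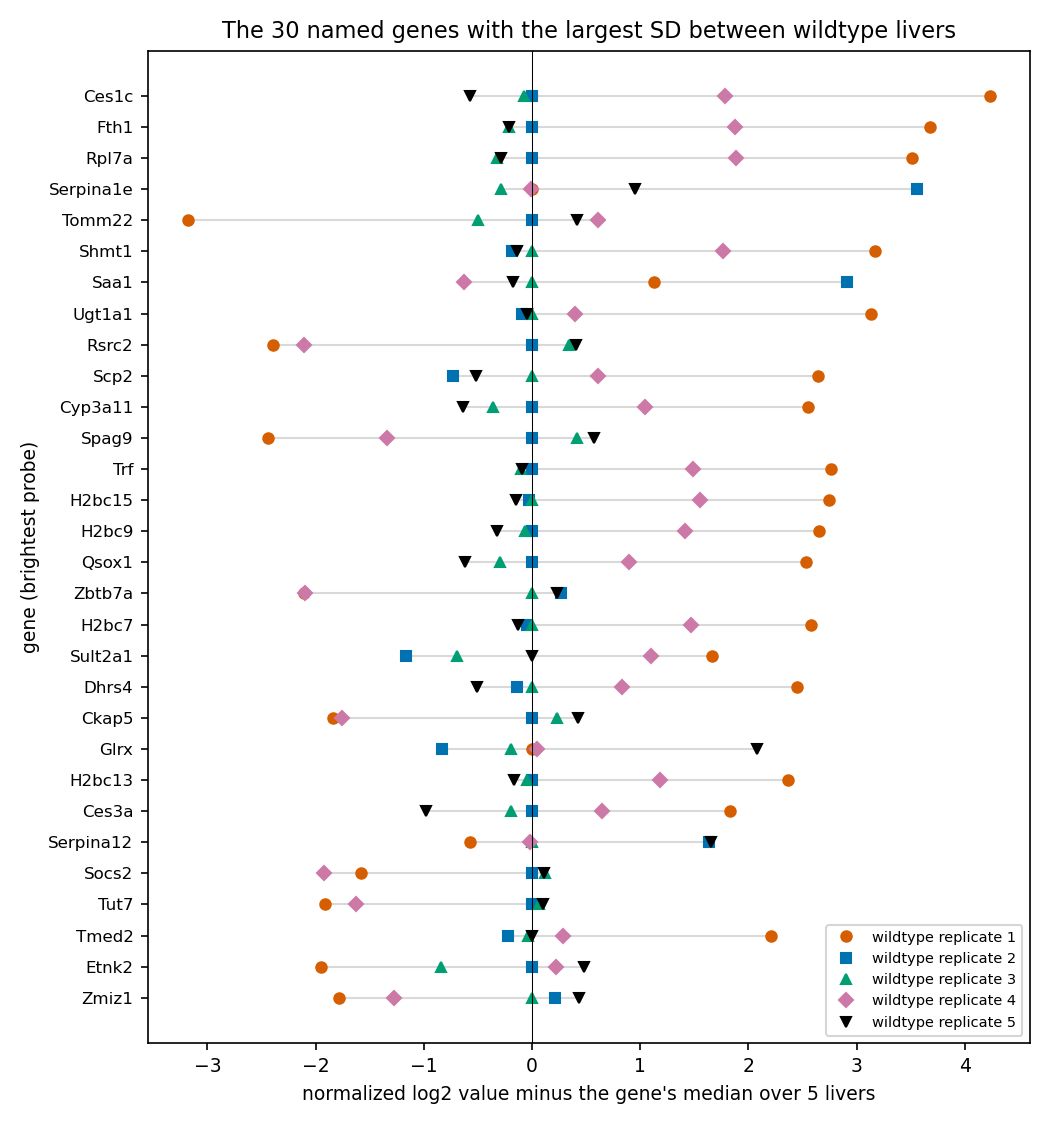
Normalized log2 value of each wildtype liver minus the gene's median over the 5 livers (x axis) for the 30 named genes with the largest SD (y axis). Replicates 1 and 4 are the 2 highest livers in 17 of these genes and the 2 lowest in 8, whereas replicate 2 alone is far above the rest in Serpina1e and Saa1 and replicate 5 alone in Glrx.

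Other genes had replicates 1 and 4 below the rest. Rsrc2, a protein rich in arginine and serine, read 306, 1968, 2266, 350.0 and 2588, and Zbtb7a, a zinc-finger repressor, read 191, 1321, 1024, 166 and 1298. Socs2, a feedback inhibitor that growth hormone induces, read 1673, 5101, 4936, 1243 and 5444. Spag9, a scaffold of stress kinases, read 46.8, 611, 814, 173 and 968. In each of the 4, replicates 2, 3 and 5 lay within a range of 0.57 or less, and the range over all 5 livers was between 2.04 and 3.01. Crebbp, a coactivator, Ski, a repressor of TGF-beta signals, and Megf9 showed the pattern so strongly that replicate 1 fell below the limit: Ski read 32.3, 457, 743, 65.2 and 1341 and Crebbp 6.80, 593, 471, 35.1 and 697. Rora, a nuclear receptor of the clock, read 1119, 2273, 2765, 759 and 2759, with a range of 1.83 over 5 livers and 0.40 without replicates 1 and 4.

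A smaller set kept its spread without these 2 livers. Of the 30 genes with the largest SD, 28 stayed variable without replicate 1 and 6 without replicates 1 and 4. Serpina1e, an alpha-1-antitrypsin gene that is known for higher levels in male liver, read 1624, 20239.6, 1217, 1574 and 3205, so that replicate 2 was 16.6 times the lowest liver. Its relatives Serpina1a, Serpina1b and Serpina1d did not share this, with ranges of 0.38, 0.11 and 0.17. Serpina12, vaspin, read 163, 1019.8, 248, 241 and 1045, with replicates 2 and 5 above the other 3. Glrx, glutaredoxin, read 551, 246, 422, 527 and 2551 and Arrdc3, an arrestin-like protein, read 215, 90.8, 178, 104 and 775, both with replicate 5 alone on top. Mug2, a murinoglobulin that inhibits proteases, read 1890.2, 903, 3812, 3088 and 3649.9 and Plin4, a lipid droplet protein, read 314, 105, 579, 673 and 476, both with replicate 2 lowest. In Sult2a1, a sulfotransferase of steroids and bile acids that is known for higher levels in female liver, the values were 930.0, 44.9, 91.1, 561 and 212, and the range without replicates 1 and 4 was 1.16.

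Cholesterol synthesis genes were high together in replicates 2 and 5. These genes are known to be switched on by the sterol-sensing transcription factor coded by Srebf2, when cells run low on sterol. Of 14 named genes of the list, 11 were detected in 5 of 5 livers and 6 were variable, where 11.2% of all detected genes were. Replicates 2 and 5 were the 2 highest livers in 8 of the 11, where they were so in 14.5% of all detected genes. Over the 11 genes the median deviation from the gene's mean was -0.26, 0.47, -0.30, -0.46 and 0.46 in replicates 1 to 5 on the log2 scale. Of the 6 variable genes 5 stayed so without replicate 1 and 2 without replicates 1 and 4. The shares of all detected genes were 5.90% and 1.74%.

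The members are ordered here along the pathway. Acat2, which joins acetyl groups, read 967, 1416, 766, 822 and 1326, and Hmgcs1, which adds the next one, read 15320.4, 34435, 17127, 13994 and 34440.3 (scl0208715.1_140-S). In Hmgcs1 replicates 2 and 5 lay above the other 3 with a clear gap, and the range was 1.28. Fdps, which makes farnesyl diphosphate, read 3246, 8484, 3094, 2382 and 7927, with a range of 1.72, and 1.24 without replicates 1 and 4. Lss, lanosterol synthase, read 287, 1046, 377, 326 and 1207, so that replicate 5 was 4.21 times replicate 1. Both again placed replicates 2 and 5 on top. Cyp51, which demethylates lanosterol, read 507, 487, 215, 77.6 and 417 and departed from the others in that replicate 1 was as high as replicate 2 and replicate 4 far below the rest. Nsdhl, a later demethylation enzyme, read 2725, 5447, 3106, 2742 and 6271, again with replicates 2 and 5 highest.

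Regulators and carriers moved in part with the enzymes. Srebf2 itself read 228, 416, 186, 182 and 406, with a range of 0.83, and Stard4, a cholesterol carrier, read 4523, 6936, 4197, 3698 and 7201. Replicates 2 and 5 were the 2 highest for both. Insig1, which holds the Srebf2 protein back in the endoplasmic reticulum, was dim at 173, 112, 62.9, 43.4 and 65.3 and highest in replicate 1. In fatty acid synthesis, by comparison, 1 of 8 detected genes was variable, and 0 without replicate 1, against 11.2% and 5.90% of all detected genes. Fasn, fatty acid synthase, had a range of 0.65 and Acaca, acetyl-CoA carboxylase, of 0.22. Replicates 2 and 5 were the 2 highest livers in 3 of these 8, against 14.5% of all detected genes.

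**Figure D5:**
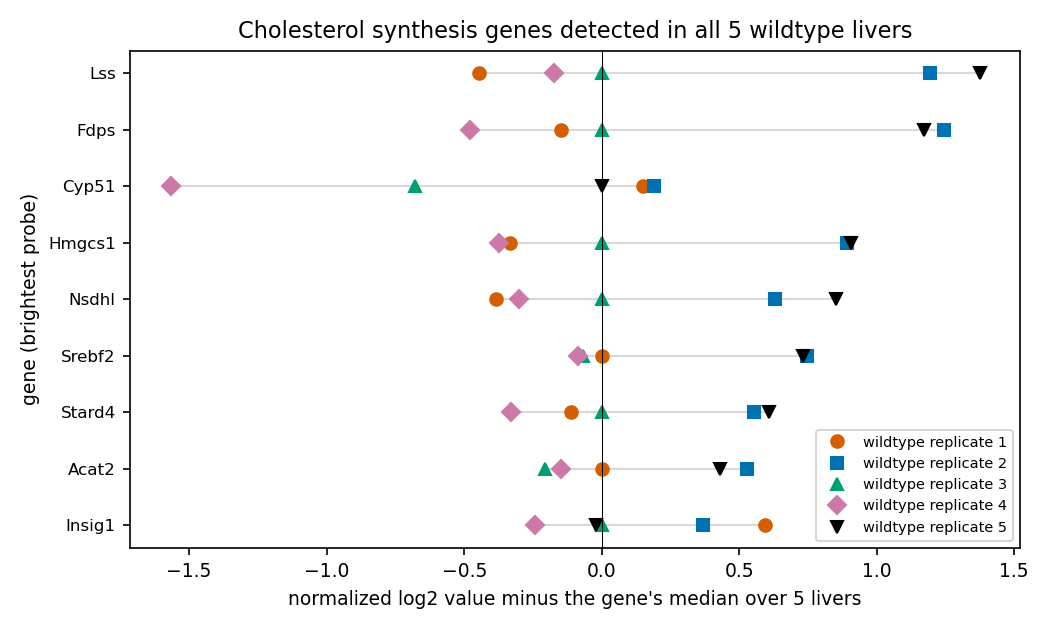
Normalized log2 value of each wildtype liver minus the gene's median over the 5 livers (x axis) for the cholesterol synthesis genes named in the text and detected in all 5 livers (y axis). Replicates 2 and 5 are the 2 highest in each gene plotted but Cyp51 and Insig1.

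The start regions of these genes are shown because the protein of Srebf2 acts through short sterol regulatory elements. The CCAAT box is not such an element and is common in promoters. Of the 11 genes 7 had an entry in the RefSeq promoter table of build GRCm38.p6, and the 250 bases before the start were searched on both strands for TCACCCCA, a sterol element core chosen after the sequences had been read, and for CCAAT. TCACCCCA was found in 2 of the 7 and CCAAT in 6 of the 7. Of all 32851 promoters of that length 1.34% hold TCACCCCA and 33.8% hold CCAAT. Because the core was chosen from these sequences, its count cannot be judged against that share. Acat2 held 0 matches to either and is not shown. A match of letters is no proof of a binding site. In the 4 sequences below capitals mark these matches, and ATTGG is CCAAT on the other strand.
Hmgcs1 (chr13:119690101-119690350, plus strand): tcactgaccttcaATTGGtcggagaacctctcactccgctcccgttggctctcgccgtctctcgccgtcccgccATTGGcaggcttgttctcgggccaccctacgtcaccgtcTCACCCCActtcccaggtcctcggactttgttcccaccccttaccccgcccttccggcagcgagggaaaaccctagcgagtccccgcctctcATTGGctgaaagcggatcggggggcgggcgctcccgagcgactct
Srebf2 (chr15:82147019-82147268, plus strand): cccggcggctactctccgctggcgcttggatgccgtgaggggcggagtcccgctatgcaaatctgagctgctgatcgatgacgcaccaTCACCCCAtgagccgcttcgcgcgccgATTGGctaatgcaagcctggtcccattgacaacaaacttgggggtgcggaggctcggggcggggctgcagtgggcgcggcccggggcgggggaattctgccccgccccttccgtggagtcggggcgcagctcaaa
Lss (chr10:76531355-76531604, plus strand): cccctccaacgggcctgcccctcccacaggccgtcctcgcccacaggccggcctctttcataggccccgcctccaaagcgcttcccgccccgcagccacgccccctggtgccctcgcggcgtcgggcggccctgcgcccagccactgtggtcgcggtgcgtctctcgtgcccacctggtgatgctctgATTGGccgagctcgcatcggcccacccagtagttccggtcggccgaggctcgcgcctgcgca
Nsdhl (chrX:72918271-72918520, plus strand): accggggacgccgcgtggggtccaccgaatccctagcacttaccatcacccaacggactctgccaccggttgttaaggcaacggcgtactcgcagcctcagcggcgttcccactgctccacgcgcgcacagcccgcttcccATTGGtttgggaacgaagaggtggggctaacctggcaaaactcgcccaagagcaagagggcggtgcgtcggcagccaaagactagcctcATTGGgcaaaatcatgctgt
In Hmgcs1 the sterol core began 137 bases before the start with CCAAT boxes at 237, 176 and 45 bases, and in Srebf2 it began at 162 with a CCAAT box at 135. Lss held 1 CCAAT box, at 62 bases, and Nsdhl 2, at 109 and 20.

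Serum amyloid A stood out among the acute phase genes. Saa1 and Saa2 code for apolipoproteins that the liver secretes in inflammation. Saa1 read 696, 2580.0, 241, 127 and 209 (scl020208.3_20-S), so that replicate 2 was 20.4 times replicate 4. Saa2 read 142, 600.1, 85.0, 65.1 and 80.7, with the same liver on top. Their ranges were 3.54 and 2.10, were unchanged without replicate 1, and were 3.09 and 1.95 without replicates 1 and 4. Orm1 was highest in the same liver, but its range was 0.30. Crp and Stat3, the transcription factor that carries the interleukin-6 signal, had ranges of 0.30 and 0.79. Interferon response genes were highest in replicate 2 in 9 of 9 detected genes, where that liver was the highest in 23.4% of all detected genes. Of the 9, 2 were variable, Irf9 and Oas1a, and 1 without replicate 1, against 11.2% and 5.90% of all detected genes. Without replicates 1 and 4 it was 0, against 1.74%. Replicates 1 and 4 were the 2 lowest livers in 6 of the 9 and the 2 highest in 0. Among all detected genes they were the 2 highest or the 2 lowest in 27.6%.

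The 2 Saa genes lie close together on chromosome 7 and their start regions are shown because they are nearly the same, with 238 of 250 bases identical. Cross-binding of the 2 transcripts to the probes was not tested. Both regions hold 1 match to TTGCNNAA, a form of the C/EBP motif that occurs in 9.56% of promoters. The match is in capitals, at 182 bases before the start of Saa1 and 183 of Saa2. A form of the NF-kB motif that occurs in 1.41% of promoters was also searched for, with 0 matches in both regions.
Saa1 (chr7:46742981-46743230, minus strand): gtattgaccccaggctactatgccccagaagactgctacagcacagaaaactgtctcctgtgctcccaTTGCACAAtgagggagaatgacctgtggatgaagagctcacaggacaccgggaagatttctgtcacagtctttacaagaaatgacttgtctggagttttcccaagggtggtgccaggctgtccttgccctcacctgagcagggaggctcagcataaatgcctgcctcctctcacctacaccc
Saa2 (chr7:46751583-46751832, plus strand): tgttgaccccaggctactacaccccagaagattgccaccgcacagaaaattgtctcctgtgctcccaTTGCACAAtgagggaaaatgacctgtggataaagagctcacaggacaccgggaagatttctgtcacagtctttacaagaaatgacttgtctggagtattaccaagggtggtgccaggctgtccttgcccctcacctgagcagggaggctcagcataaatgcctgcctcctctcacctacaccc

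Blood and immune genes differed in which livers stood apart. Hba-a1, alpha globin of red blood cells, read 8846, 7794, 14444, 12114 and 31533, and Hbb-b1, beta globin, read 202, 99.1, 208, 153 and 412. Replicate 5 was the highest in both, and replicate 2 the lowest. The summed intensity of the 8 named red blood cell genes, 2 of them detected in 5 of 5 livers, was 9276, 8027, 14715, 12380.4 and 32079 in replicates 1 to 5, nearly all of it from Hba-a1. The antibody genes Igkc, 861, 1859.7, 2513, 1994 and 3827, and Ighm, 359.8, 894, 573, 508 and 849, were lowest in replicate 1, and their ranges fell from 2.04 and 1.18 to 0.99 and 0.66 without it. Jchain, which joins antibodies, was detected in 0 livers. C1qa and C1qb, complement subunits made by Kupffer cells, read 453, 1391, 696, 514 and 789 and 396, 1010.3, 514, 416 and 509. Both were highest in replicate 2, the liver with the highest Saa1, and lowest in replicates 1 and 4. Cd74 and H2-Ab1 of antigen presentation read 584, 1569, 1056, 611 and 1044 and 463, 1332, 1157, 702 and 1201. Again replicate 2 was the highest, and replicates 1 and 4 were the 2 lowest. The range of Cd74 was 1.31, and 0.54 without replicates 1 and 4. Of 7 detected MHC genes 3 were variable, and 0 without replicates 1 and 4, against 11.2% and 1.74% of all detected genes. Over the 9 named Kupffer cell genes the summed intensity was 2389, 3973, 2525, 1831 and 2252. The sum was highest in replicate 2, where most of it came from C1qa and C1qb. Of the 6 detected in 5 of 5 livers, replicate 2 was the highest in 4, C1qa and C1qb among them, where it was so in 23.4% of all detected genes. The part of Kupffer cell genes in the values of Saa1 was not tested.

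Drug-metabolising enzymes held some of the widest ranges. Of 34 named genes of phase I, 21 were detected in 5 of 5 livers, 17 lay in the brightest 10.0%, and 9 were variable, against 11.2% of all detected genes. All 9 stayed variable without replicate 1, and 0 without replicates 1 and 4, against 5.90% and 1.74% of all detected genes. Ces3a, a carboxylesterase, read 2500.0, 589, 477, 969 and 245, and Cyp2a4, a steroid hydroxylase known for higher levels in female liver, read 12962, 3531, 3307, 8399 and 5198. Replicates 1 and 4 were the 2 highest livers in 8 of the 21 detected genes, and in 9.11% of all detected genes. Of 18 detected genes of conjugation and glutathione 6 were variable, against 11.2% of all detected genes. Without replicate 1 there were 4, against 5.90%, and without replicates 1 and 4 also 4, against 1.74%. Gsta2 and Gsta1, glutathione transferases of one family, read 1328, 227, 687, 1366 and 341 and 396, 49.1, 197, 458 and 94.8, with replicates 1 and 4 highest and replicate 2 lowest in both. Tpmt, which methylates thiopurines, read 435, 249.9, 239, 757 and 982, with replicates 4 and 5 highest.

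Genes known to differ between the sexes could be read in these female livers. Cyp2b13 and Cyp2b9, P450s of female liver, had means of 6976 ± 538 (SD, n = 5) and 4525 ± 1062 (SD, n = 5), with ranges of 0.18 and 0.69. Cux2, a transcription factor of female liver, read 580.2, 1664, 772, 433 and 1704, and Abcd2, a peroxisomal fatty acid transporter, read 248, 632, 303, 92.2 and 464. Both were higher in replicates 2 and 5 than in replicates 1, 3 and 4. Of 18 named female-biased genes 12 were detected in 5 of 5, and of 15 named male-biased genes 9, against 41.2% of all named genes. In each list 3 genes were detected in 0 livers, among them Mup5 of the male and Cyp3a44 of the female list.

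In fuel metabolism 3 of 6 detected genes of gluconeogenesis and glycogen and 4 of 14 of glycolysis and pyruvate were variable, against 11.2% of all detected genes. Without replicate 1 these were 2 and 2, against 5.90%. Pck1, the enzyme that commits carbon to glucose production, read 873, 465, 833, 1383 and 1098, with replicate 4 highest and replicate 2 lowest. Slc37a4, the glucose-6-phosphate transporter, read 2759, 1316, 1983, 3612 and 2314 in the same order of extremes. Ppp1r3b, which directs a phosphatase to glycogen, read 875, 182, 160.0, 289 and 367, with replicate 1 highest. Pfkfb3, which makes the activator of glycolysis fructose 2,6-bisphosphate, read 262, 358, 490.5, 769.6 and 1011, lowest in replicate 1 and highest in replicate 5. Tdo2, which opens the ring of tryptophan, read 379.5, 63.5, 294, 265 and 169.8, with replicate 2 far below the other 4. Of 17 detected genes of fatty acid oxidation 3 were variable, Acsl1, Acot3 and Pex11a, and 2 without replicate 1. Acsl1, which activates long fatty acids, read 4216, 4597, 3834, 1717 and 3511, low in replicate 4 alone, and Acot3, a thioesterase, read 6662, 3459.8, 2306, 2611 and 2885, high in replicate 1 alone. In glycerol and triglyceride turnover Aqp9, the glycerol channel of hepatocytes, was even at 13835 ± 1731 (SD, n = 5), while Lpin2, a phosphatidate phosphatase, read 1502, 1794, 2419, 2373 and 4001, with replicate 5 highest.

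The steadiest genes included parts of the ribosome and the proteasome. Qdpr, which regenerates tetrahydrobiopterin, read 5409, 5257, 4612, 5303 and 5052, a range of 0.06. Sod1, a superoxide dismutase, Psmb6, a proteasome subunit, and Rpl19 had ranges of 0.09, 0.08 and 0.06. The deposited intensities of these genes still differed by up to 1.25 times between livers, since the arrays differ in brightness before normalization. Of 63 detected ribosomal protein genes 7 were variable, of 41 of oxidative phosphorylation 3, of 15 of the proteasome 1 and of 8 of the oxidative stress list 0, against 11.2% of all detected genes, so the ribosomal share was at that of all genes. Without replicate 1 the counts were 5, 1, 0 and 0, against 5.90%. Pgk1 and Pfn1, often used as reference genes, reached ranges of 1.06 and 1.01, and 0.49 and 0.38 without replicate 1. Gapdh had a range of 0.41. Hsp90ab1, a chaperone, had one of 0.16 at its brighter probe and of 2.33 at another detected probe.

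A second probe gave a partial check on the variable genes. Of the 215 genes with 2 probes detected in 5 of 5 livers 34 were variable at the brighter probe, and 11 of these at both. The same liver was the highest at both probes in 8 of the 11. Scp2, Tmed2 and Ccnd1 were among them. In Tut7, an enzyme that adds uridines to RNA, the 2 probes were about equally bright and did not match: the range was 2.02 at one and 0.43 at the other. Ckap5, a microtubule protein, had ranges of 2.26 and 0.26. The reverse was seen in Cyp2a5, a cytochrome P450. Its brighter probe had a range of 0.63 and a second detected probe one of 5.82, with replicates 1 and 4 highest, which is wider than that of Ces1c. Whether such pairs bind different transcript forms was not tested.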

How the data were processed

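Liver RNA of 5 wildtype mice was measured with 1 bead array each. The deposited values are linear probe intensities, made by the authors with BeadStudio 1.5.1.3, per the submitters' processing notes, and about 32.1% to 33.1% of the wildtype values lay below 0, so a background had been subtracted. Whether the authors also normalized the arrays is not given in the sources used here. A further deposited table has 80 per-array columns that no label ties to a sample, and they were not used.

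Intensities were raised by 95.2 so that the lowest of all 10 arrays was 16, taken to log2 and quantile normalized over the 10 arrays with limma 3.58.1 in R 4.3.3. This normalization was the only use of the heterozygous arrays. Spread was computed among genes detected in 5 of 5 wildtype livers. The code for normalization and spread was tried on simulated data in which 1 array was shifted per chosen probe. That did not cover a shift shared by replicates 1 and 4. There is 1 group, so no test between groups was made and no p-value was computed. Dixon's limit was used to mark livers that stand apart within a gene.

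Gene names come from a match of the number in the probe identifier, after 1 or 2 zeros and at least 11000, to the gene identifiers of a table of assembly GRCm38.p6. This reading of the number is inferred: 93.3% of 9523 probes matched, against 40.4% for shifted numbers. The remaining 15164 probes stayed unnamed. No detection p-value per sample could be used, so the noise limit was.

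The text names the 30 brightest genes, the 30 with the largest SD with and without replicate 1, the 10 steadiest, the genes next to the limit, and the bright, middling, variable and undetected members of 47 gene lists, as far as there is room, and some genes that fall under these rules are not reported here. Insig1 was added after its values were seen, to complete the cholesterol list. The genes and lists were chosen with earlier results of these data known. Named probes existed for 623 of the 1508 genes in the lists. The title numbers 1, 2 and 7 of the wildtype mice have no stated meaning and were not used. Other settings tried were normalization over the wildtype arrays alone, median scaling, cyclic loess, none, 4 and 50 as the lowest value, a stricter limit, other filters, another probe per gene, a range of 1.5, and leaving out livers.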

Additional observations from a re-analysis of the deposited data

Results flagged for a closer look

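In some genes 1 liver lay far from the other 4, by a gap that took up more than 0.71 of the whole range of normalized log2 values, the 95% limit of Dixon's test for 5 values. Chance gives about 1 in 20 genes, and 213 of the 3051 detected genes (6.98%) passed. Of 148 genes named here, detected in 5 of 5 livers and examined in this way, 17 did. A high liver was seen in Cebpa (0.873), Ugt1a1 (0.849), Tmed2 (0.788), Cyp4a10 (0.755) and Apoc3 (0.722), all in replicate 1, where the number is the share of the range that the gap takes up. Replicate 2 was high in Orm1 (0.807) and Saa2 (0.794), replicate 3 in Clock (0.859) and Prdx1 (0.826), and replicate 5 in Apoa2 (0.746), Apoa1 (0.726) and Arrdc3 (0.72). A low liver was seen in Gpihbp1 (0.799), Stat3 (0.765) and Ass1 (0.727) in replicate 1, in Acsl1 (0.718) in replicate 4 and in Mup1 (0.927) in replicate 5. The range was at least 1 in Cebpa, Ugt1a1, Tmed2, Saa2, Arrdc3 and Acsl1, and 0.18 in Prdx1 and 0.13 in Apoa1. In Apoa1, Apoa2 and Apoc3 some livers had equal normalized values set by their ranks, so their gaps are steps between ranks.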

How the results depend on the processing

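The number of variable genes was 342 in the main setting, 119 with a range of at least 1.5, 55 without replicates 1 and 4, a choice made after the data were seen, and between 191 and 327 with 1 liver left out, lowest without replicate 1. These counts take the genes detected in all livers kept. Over the remaining alternatives it lay between 290 and 477. Variable cholesterol synthesis genes numbered 6, 3 with a range of at least 1.5, 2 without replicates 1 and 4, and 5 to 6 with 1 liver left out, and 6 or 7 otherwise. Replicates 2 and 5 were the 2 highest in 8 of the 11 detected cholesterol synthesis genes, in 8 to 9 with replicate 1, 3 or 4 left out, and in 7 with the probe of median brightness. With no filter on dim probes all 7409 genes enter in place of 3051, and the median intensity was 32.1 in place of 447.5. The lowest correlation between arrays, 0.948, was 0.948 to 0.966 with 1 liver left out, and the median SD, 0.20, was 0.16 to 0.21. With 1 liver left out 3087 to 3201 genes were detected in all, 3108 to 3160 in none, and the median intensity was 406 to 436. Of 2514 ranges of single genes under the 17 alternatives, 203 moved by more than the gene's own SD, most of them where livers were left out.

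No paired analysis was possible because 1 group was described and nothing pairs its mice. Depth is not defined for arrays: genes near the noise limit have only an approximate level, and the added constant shrinks their spread. Livers and arrays, and cell numbers and RNA per cell, cannot be told apart.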

Other observations

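Of 8 detected stellate cell and matrix genes 2 were variable, Lrat and Loxl1, against 11.2% of all detected genes. Without replicate 1 it was 1, against 5.90%. Lrat, which stores vitamin A as retinyl ester in stellate cells, read 140.0, 943, 508, 197 and 679 in replicates 1 to 5, with replicates 2 and 5 highest and replicates 1 and 4 lowest. Its range was 2.24, and 0.71 without replicates 1 and 4. Loxl1, an enzyme that crosslinks elastin, read 66.0, 206, 82.3, 96.0 and 139.8, with a range of 1.07, and 0.72 without replicate 1. Timp3 and Col6a1, an inhibitor of matrix proteases and a collagen, had ranges of 0.81 and 0.67. H2-Q2, a gene of the MHC class I family with close relatives, read 17317, 8416, 6190.1, 9355 and 7801, high in replicate 1. H2-T23 of the same family had a range of 0.13 at its brighter probe. A second detected H2-T23 probe had one of 0.50, also with replicate 1 highest.

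Transporters and stress genes also differed between livers. Abcc2, the pump that sends conjugated bilirubin into bile, read 1565, 3534, 2605, 1288 and 2708, with replicates 1 and 4 lowest. Hsp90aa1, the stress-induced form of a chaperone, read 586, 387, 941, 826 and 817, lowest in replicate 2. Junb, an immediate early gene, read 241, 377, 221, 120.3 and 235, highest in replicate 2 and lowest in replicate 4, and Klf6, another, read 539.5, 1164, 1317, 822 and 1523, lowest in replicate 1. Of the immediate early genes Egr2, Myc and Nr4a1 were detected in 0 livers. Noct, a clock output gene, read 141, 56.5, 88.7, 241 and 224, and Por, the electron donor of cytochromes P450, read 3786, 2494, 3281, 5367 and 4643, both highest in replicate 4 and lowest in replicate 2. Ldha, lactate dehydrogenase, read 6697, 7469.7, 4022, 3007 and 3868, with replicates 1 and 2 highest.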
